A study of Mus musculus with 8 samples.

Results

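The early response of mouse liver to a high-fat diet was described from 4 of the 8 arrays of the series: livers of mice fed the diet for 6 weeks against livers of mice on normal chow, with 1 wild-type (AIM+/+) and 1 AIM-knockout (AIM-/-) array in each diet group. All mice carried the C57Bl/6 strain background. AIM, the product of Cd5l, is a scavenger-receptor family protein that tissue macrophages secrete into blood, and the study followed both genotypes on the diet for 0, 6, 12 and 20 weeks. Each genotype and week was measured on 1 Agilent one-colour array of total liver RNA, so each genotype's own change compared 1 array with 1 array and had no replicate check.

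The 4 arrays were chosen by their titles and paired by genotype, and no measured value entered the choice. There was only 1 chow group, taken here as 0 weeks of diet. Diet therefore cannot be told apart from any difference in age or time between the groups. All wild-type arrays lay on slide 1 and scan 1 and all knockout arrays on slide 2 and scan 2, so each genotype's own change lies within 1 slide and scan. Sex, age, time of sampling, fat content of the diet and whether RNA of several animals was pooled are not given in the sources used here. Hepatocyte markers were well above background on all 4 arrays for 9 of the 9 listed genes on the array, albumin among them (Alb signals of 363025 and 364562 on chow and 361027 and 371256 at 6 weeks). RNA came from whole tissue, so fewer cells of a type and less RNA per cell cannot be told apart.

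A liver that receives more fatty acid than it burns or exports stores the surplus as triglyceride in lipid droplets, whose surface proteins (the CIDE and perilipin families) govern droplet fusion and access of lipases. Fatty acids also act as ligands of the nuclear receptor PPAR alpha, which drives transcription of genes for peroxisomal and mitochondrial fatty acid oxidation and ketone body synthesis. Hepatocytes in addition express large families of cytochrome P450 and glutathione transferase genes for the removal of drugs and steroids, several of which follow sex, growth hormone and time of day.

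A change is given throughout as a difference of log2 processed signals, 6 weeks minus chow, after each array was scaled to its own 75th percentile; signals themselves are printed as deposited, before scaling, in the order wild type then knockout. The 75th percentile of the processed signal was 254 and 283 on chow and 234 and 302 at 6 weeks, and between 18598 and 19879 of 41174 probes were well above background on each array. No probe was saturated. Of 13689 genes with a probe well above background on at least 2 of the 4 arrays, 12415 were so on all 4, 136 only on both 6-week arrays and 91 only on both chow arrays. A gene in these last groups had to differ, and its fold is given as a lower bound, "at least", against the higher of the probe's own signal and the dimmest signal that the array measured well above background. The median change over all genes was 0.00074 for the mean of both genotypes, 0.03 in wild type and -0.03 in knockout.

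In wild type 455 genes (3.32% of those tested) were at least 2-fold higher at 6 weeks and 343 (2.51%) at least 2-fold lower. In knockout the counts were 696 (5.08%) and 504 (3.68%). Both genotypes together had 138 genes (1.01%) at least 2-fold higher and 94 (0.687%) at least 2-fold lower; the 138 were 30.3% of those higher in wild type and 19.8% of those higher in knockout, and the 94 were 27.4% and 18.7%. Both chow arrays were well above background for 75 of the 138, and both 6-week arrays for 44 of the 94. The shares of 1.01% and 0.687% go beside each count below of list members at least 2-fold different in both genotypes. The changes of the 2 genotypes come from separate arrays, and their Pearson correlation over genes (genes do not stand for replicates) was 0.150, or 0.206 among genes well above background on all 4 arrays. The spread of the changes (SD over genes) was 0.576 in wild type and 0.699 in knockout. By the smaller of the 2 folds, Oas1a (2.03-fold higher) and Ablim1 (2.0004-fold lower) lay just inside the 2-fold limit, and Trp53inp2 (1.9981-fold higher) and Rnf148 (1.9984-fold lower) just outside it.

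The mean change of both genotypes was tested with limma, which took the spread from all 8 arrays after week and genotype were fitted, with Benjamini-Hochberg adjustment over all genes. By this test 11 genes (0.0804%) passed at an adjusted p under 0.05, of which 8 rose (0.0584%) and 3 fell (0.0219%). The filter set the direction of the 3 falls and of 1 rise, that of 4931417E11Rik. At an unadjusted p under 0.05 there were 1659 (12.1%). None of the 11 passed when week 12, week 20, the knockout chow array or either 6-week array was left out, or when the 4 arrays were fitted alone, and 2 passed without the wild-type chow array.

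**Figure D1:**
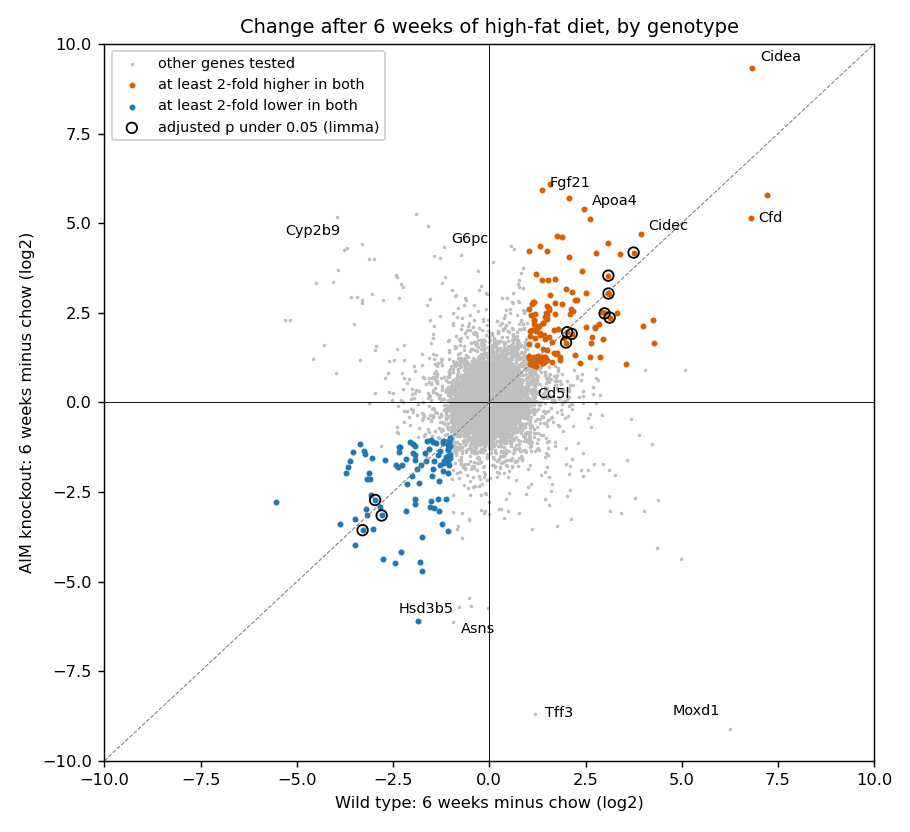
Change of each of the 13689 genes tested (log2, 6 weeks minus chow) in wild type on the horizontal axis and in AIM knockout on the vertical axis, 1 array against 1 in each. Orange points are the 138 genes at least 2-fold higher in both genotypes, blue points the 94 at least 2-fold lower in both, and rings mark the 11 genes past the limma test; Cidea stands farthest to the upper right, while Moxd1 and Tff3 lie far from the diagonal.

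Cd5l, the targeted gene, gave signals of 10544 in wild type and 90.7 in knockout on chow, and of 19978 and 140 after 6 weeks. The knockout arrays were thus far below the wild-type arrays at both times, while still well above background. The change was 1.04 in wild type and 0.53 in knockout (SE 0.17 for the mean; limma adjusted p = 0.204), which did not pass the test.

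Among the genes that rose, Gpc1, which encodes the cell-surface heparan sulphate proteoglycan glypican 1 (probe at chr1:94690540-94690599, mm8), gave 404 and 461 on chow and 3174 and 5692 at 6 weeks. Both 6-week signals lay far above both chow signals. Its changes were 3.09 in wild type and 3.54 in knockout, a mean of 9.95-fold (SE 0.22 log2; limma adjusted p = 0.0282). Adgrv1, a very large adhesion G protein-coupled receptor known from hair cells of the inner ear (chr13:81558767-81558826), stood at 54.8 and 79.5 on chow and at 678 and 1533 at 6 weeks. The rise was 3.75 in wild type and 4.18 in knockout (SE 0.26, limma adjusted p = 0.0282). A second Adgrv1 probe gave a mean change of 2.87 against 3.96.

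Mfsd2a, the transporter that takes up lysophosphatidylcholine carrying long-chain fatty acids such as docosahexaenoic acid (chr4:122449242-122449301), rose nearly equally in both genotypes. Its signals were 3646 and 4656 on chow and 28728 and 40726 at 6 weeks, 8.55-fold and 8.22-fold higher (mean change 3.07, SE 0.23; limma adjusted p = 0.0289). Fabp2, the fatty acid-binding protein best known from the small intestine (chr3:122891380-122891439), had 20522 and 23727 on chow and 75288 and 80396 at 6 weeks. Both of its diet signals were over 3 times its chow signals, with changes of 1.99 and 1.67 (mean 3.56-fold, SE 0.14 log2; limma adjusted p = 0.0336). Serpina7, which encodes thyroxine-binding globulin, the plasma carrier of thyroid hormone (chrX:134427673-134428327), went from 415 and 749 to 1682 and 3002. That was a rise of 2.14 in wild type and 1.91 in knockout (SE 0.15; limma adjusted p = 0.0289). The uncharacterised transcript 1810055G02Rik (chr19:3717691-3717750) rose from 523 and 560 to 1959 and 2313, by 2.02 and 1.96 (SE 0.14; limma adjusted p = 0.0289). The last gene to rise, 4931417E11Rik, was not well above background on chow (5.06 and 7.06). It gave 40.7 and 38.7 at 6 weeks, at least 3.95-fold higher (limma adjusted p = 0.0289). This gene passed the filter only through the 6-week arrays, which set the direction of its change. Its signals at weeks 12 and 20, which also entered the spread of the test, lay between its chow signals.

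Slc13a4, a sodium-coupled sulphate transporter (chr6:35198123-35198182), had signals of 32.2 and 44.2 on chow and 237 and 263 at 6 weeks. The 6-week arrays were close to each other and the rise was 2.99 in wild type and 2.48 in knockout (mean 6.68-fold, SE 0.21 log2; limma adjusted p = 0.0289). Its promoter is shown because among the genes that rose it alone held a relaxed form of the direct repeat that PPAR and RXR bind (AGGNCANAGGNCA, searched on both strands from 250 bases before the start to 50 after it). Apoc2, an apolipoprotein that activates lipoprotein lipase, is another named gene with such a word, and is shown for comparison. Both stretches are the 250 bases before the gene start, 5′ to 3′ on the gene's own strand, from RefSeq promoters of GRCm38.p6, with the matching word in capitals.
Slc13a4, chr6:35308127-35308376, minus strand: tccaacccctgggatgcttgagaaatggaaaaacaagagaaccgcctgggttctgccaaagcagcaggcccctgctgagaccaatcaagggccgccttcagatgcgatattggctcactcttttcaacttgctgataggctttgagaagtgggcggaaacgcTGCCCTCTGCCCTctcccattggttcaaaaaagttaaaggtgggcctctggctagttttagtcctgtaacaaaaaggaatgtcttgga
Apoc2, chr7:19677942-19678191, minus strand: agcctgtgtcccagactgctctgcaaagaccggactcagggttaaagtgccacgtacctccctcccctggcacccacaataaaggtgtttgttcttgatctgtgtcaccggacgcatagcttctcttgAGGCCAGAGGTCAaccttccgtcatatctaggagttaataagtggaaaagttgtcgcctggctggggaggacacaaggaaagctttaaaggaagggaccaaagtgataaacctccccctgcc

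The word in the Slc13a4 promoter lies on the opposite strand, 88 bases before the start, and that of Apoc2 lies on the gene's strand, 122 bases before the start. Apoc2 signals were 54300 and 72470 on chow and 103349 and 145107 at 6 weeks, changes of 1.05 and 0.91 (limma adjusted p = 0.124). Of the 13689 genes, 9524 had a promoter in the RefSeq table, and 37 of these (0.388%) held the relaxed repeat. The strict repeat (AGGTCANAGGTCA) was in 5 (0.0525%), the sterol element (ATCAC directly followed by CCCAC) in 9 (0.0945%) and the short word CCAAT in 4047 (42.5%). Of the 8 genes that rose, 7 had a promoter, 1 with the relaxed repeat and 6 with CCAAT. Among the 98 promoters of genes at least 2-fold higher in both genotypes, 1 held the relaxed repeat and 54 CCAAT (55.1%), and among the 51 of those at least 2-fold lower, 21 held CCAAT (41.2%) and 0 the relaxed repeat. None of the 28 promoters of the PPAR alpha target list held either repeat. Such matches are descriptions of letters in this window.

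All 3 genes that fell were dim transcripts of little known function, which were not well above background on either 6-week array. They passed the filter only through the chow arrays, which set the direction of their change. Their signals at weeks 12 and 20, which also entered the spread of the test, were only between 5.14 and 8.06. LOC674229 went from 52.3 and 70.3 to 4.92 and 6.32, at least 5.44-fold lower (limma adjusted p = 0.0122). Its chow signals were modest, so the size of the fall is measured only down to background. The signals of 4930465A12Rik were 55.4 and 62.0 on chow and 7.35 and 7.41 at 6 weeks, at least 5.26-fold lower (limma adjusted p = 0.0200). Speer6-ps1, a pseudogene of the Speer family whose probe may also catch its relatives, went from 54.9 and 42.7 to 6.47 and 6.88, at least 4.34-fold lower (limma adjusted p = 0.0207).

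Lipid droplet genes were higher at 6 weeks more often than lower, and Cidea had the largest difference upwards that both genotypes shared. Of 20 listed genes 19 passed the filter, 1 of them only through the 6-week arrays, which set its direction. In both genotypes 7 were at least 2-fold higher (1.01% of all genes tested were) and 0 at least 2-fold lower (0.687% of all). By any amount, 14 were higher in both (28.1% of all) against 2 lower in both (27.3% of all). None of the 19 passed the limma test. Their median change was 0.61 in wild type and 1.66 in knockout. Cidea, which promotes fusion of lipid droplets and is best known from brown fat, gave 34.4 and 28.6 on chow and 3601 and 19606 at 6 weeks. On chow only the wild-type array was well above background, and the difference was 114-fold in wild type and at least 644-fold in knockout (SE 0.94 log2; limma adjusted p = 0.0762). Cidec, a CIDE family member typical of fat-storing cells, had 547 and 871 on chow and 7731 and 24218 at 6 weeks. The changes of 3.94 and 4.71 (SE 0.46) came with an adjusted p of 0.0623 by limma. The third family member, Cideb, which is normally abundant in hepatocytes, differed little, with changes of 0.09 and 0.63.

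Perilipin and lipase genes were less uniform. Plin4 stood at 488 and 649 on chow and at 1306 and 4105 at 6 weeks, changes of 1.54 and 2.57 (limma adjusted p = 0.202). Plin2, the common coat protein of hepatocyte droplets, was higher in knockout (1.84) than in wild type (0.61), and Plin5 was higher in knockout only (1.66 against -0.34). Plin3 stayed near 0 in both (-0.06 in knockout). G0s2, an inhibitor of the triglyceride lipase ATGL, gave 2573 and 1596 on chow and 6878 and 18041 at 6 weeks (changes 1.54 and 3.41; limma adjusted p = 0.231). Mgll, the monoglyceride lipase, gave 7263 and 5058 on chow and 21734 and 29609 at 6 weeks. The changes of Mgll were 1.70 and 2.46 (SE 0.23, limma adjusted p = 0.0623). Pnpla3, a droplet protein that responds to carbohydrate feeding, was not well above background on chow and reached 100 and 113, at least 5.81-fold higher (limma adjusted p = 0.301). Fitm1, which aids droplet formation, had changes of 1.06 and 1.86. The ATGL gene Pnpla2 differed by 0.35 and -0.22, and Ces1d, a hepatic triglyceride hydrolase, was lower by nearly the same amount in both genotypes (-0.58 and -0.56).

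**Figure D2:**
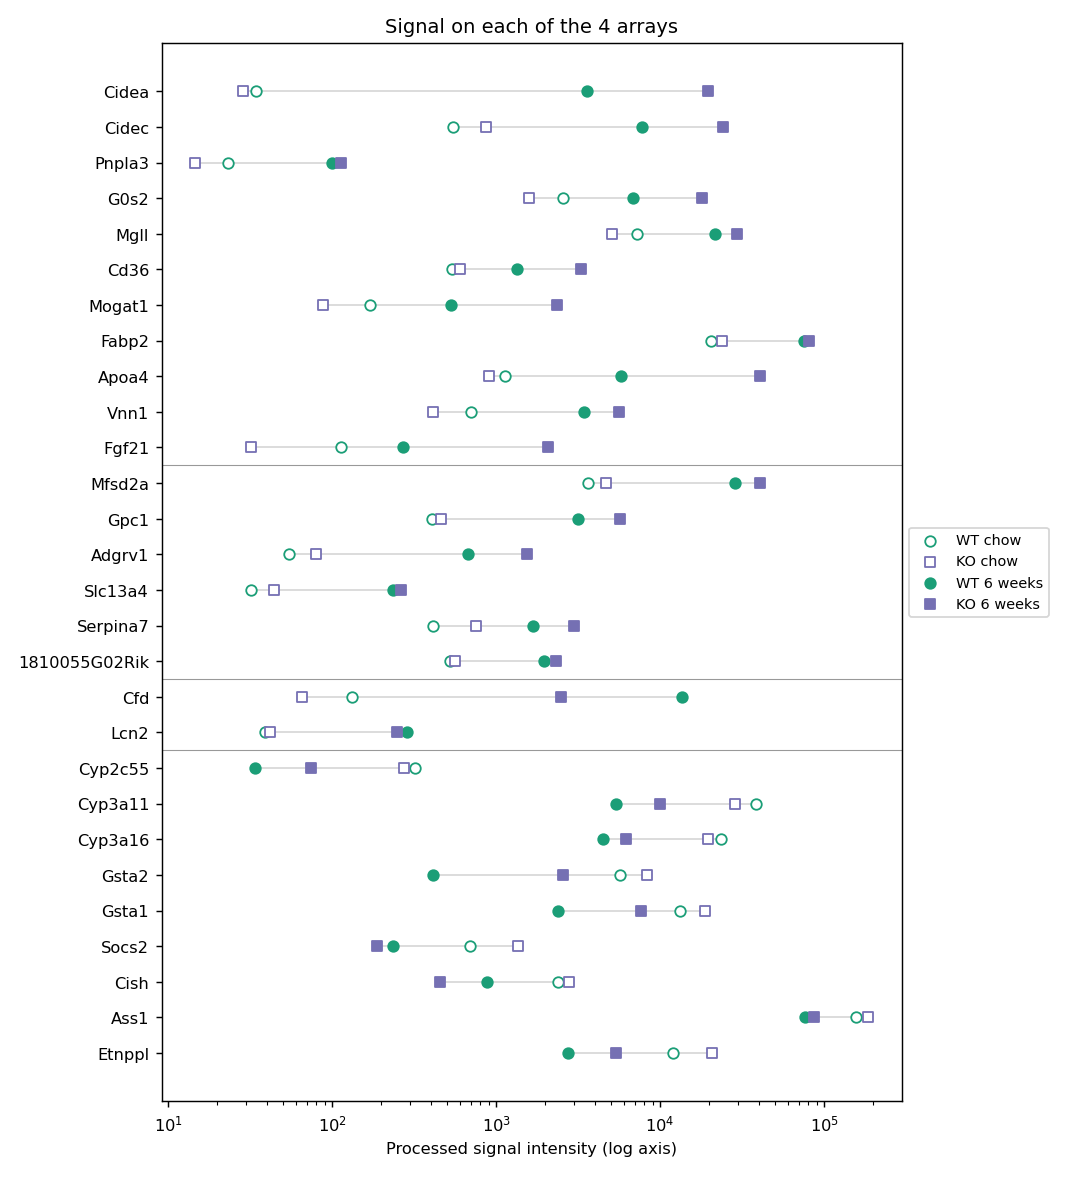
Processed signal (log axis, as deposited) of 28 named genes on each of the 4 arrays; open symbols are chow, filled symbols 6 weeks, circles wild type and squares knockout. From the top, lipid storage and PPAR alpha genes and genes past the test have filled symbols to the right of open ones, and the lowest block, with Cyp2c55 and Etnppl, shows the opposite order.

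Genes for uptake and esterification of fatty acids were mixed. Of 25 that passed the filter (26 listed), 1 rose by the test (Fabp2, above), as did 0.0584% of all genes tested. In both genotypes 3 were at least 2-fold higher (1.01% of all) and 0 at least 2-fold lower (0.687% of all). By any amount, 10 were higher in both (28.1% of all) against 2 lower (27.3% of all). The median change was 0.21 in wild type and 0.45 in knockout. Cd36, a fatty acid translocase of the plasma membrane, gave 538 and 600 on chow and 1344 and 3315 at 6 weeks (changes 1.44 and 2.38; limma adjusted p = 0.0988). Mogat1, which acylates monoglyceride, had 170 and 88.1 on chow and 534 and 2337 at 6 weeks, changes of 1.77 and 4.64 (limma adjusted p = 0.181). Its knockout array at 6 weeks stood apart from the other 3, and the difference between genotypes had an adjusted p of 0.0751 by limma. Vldlr, a lipoprotein receptor, was higher chiefly in knockout, with 73.4 and 70.0 on chow against 78.2 and 359 at 6 weeks. Among 21 genes of lipogenesis, desaturation and elongation, 7 were higher in both genotypes (28.1% of all genes tested were) and 2 lower in both (27.3% of all). Their medians were -0.16 in wild type and 0.85 in knockout, and 1 was at least 2-fold higher in both (1.01% of all). The 1 was Fads2, the delta-6 desaturase, with 5450 and 9625 on chow and 15489 and 22208 at 6 weeks (1.63 and 1.12; limma adjusted p = 0.139). Fasn, the fatty acid synthase, was lower on the knockout chow array (49043) than on the other 3 (129298 to 168664), so that its change was 0.24 in wild type and 1.69 in knockout (limma adjusted p = 0.461). Scd1, the stearoyl-CoA desaturase, differed by -0.24 and 0.53, and Srebf1, the gene of the lipogenic factor SREBP1, by 0.57 and -0.16.

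Most PPAR alpha targets and genes of fatty acid oxidation were higher at 6 weeks in both genotypes. Of 40 listed, 39 passed the filter. In both genotypes, 32 were higher (28.1% of all genes tested were) and 1 lower (27.3% of all). At least 2-fold in both, 4 were higher (1.01% of all) and 0 lower (0.687% of all). The median was 0.42 in wild type and 0.82 in knockout, and none passed the limma test. Vnn1, a pantetheinase and a strongly responsive PPAR alpha target, gave 701 and 412 on chow and 3455 and 5604 at 6 weeks. Its changes were 2.42 and 3.67 (SE 0.30; limma adjusted p = 0.0589). Aldh3a2, which oxidises fatty aldehydes, had 4442 and 4155 on chow and 10151 and 16347 at 6 weeks, 1.31 and 1.89 (SE 0.17, limma adjusted p = 0.0623). Decr1, a mitochondrial reductase of unsaturated fatty acids, had 239 and 227 on chow and 420 and 532 at 6 weeks (limma adjusted p = 0.0988). Pex11a, which promotes peroxisome division, had changes of 0.90 and 2.06. Cpt1a, which admits fatty acids to mitochondria, differed by 1.48 in wild type and 0.55 in knockout.

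Fgf21, the fasting-responsive hormone under PPAR alpha control, gave 114 and 32.2 on chow and 272 and 2065 at 6 weeks. The knockout chow array was not well above background, so the knockout difference was at least 60.3-fold, against a change of 1.37 in wild type. The mean did not pass (limma adjusted p = 0.273), while the change differed between genotypes (limma adjusted p = 0.0422). Pdk4, which restrains pyruvate oxidation, went opposite ways, from 563 to 99.2 in wild type and from 44.1 to 532 in knockout. Omega-hydroxylase genes, also PPAR alpha targets, were less uniform: Cyp4a10 differed by -0.26 and 0.46 and Cyp4a14 by 0.07 and 1.92.

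**Figure D3:**
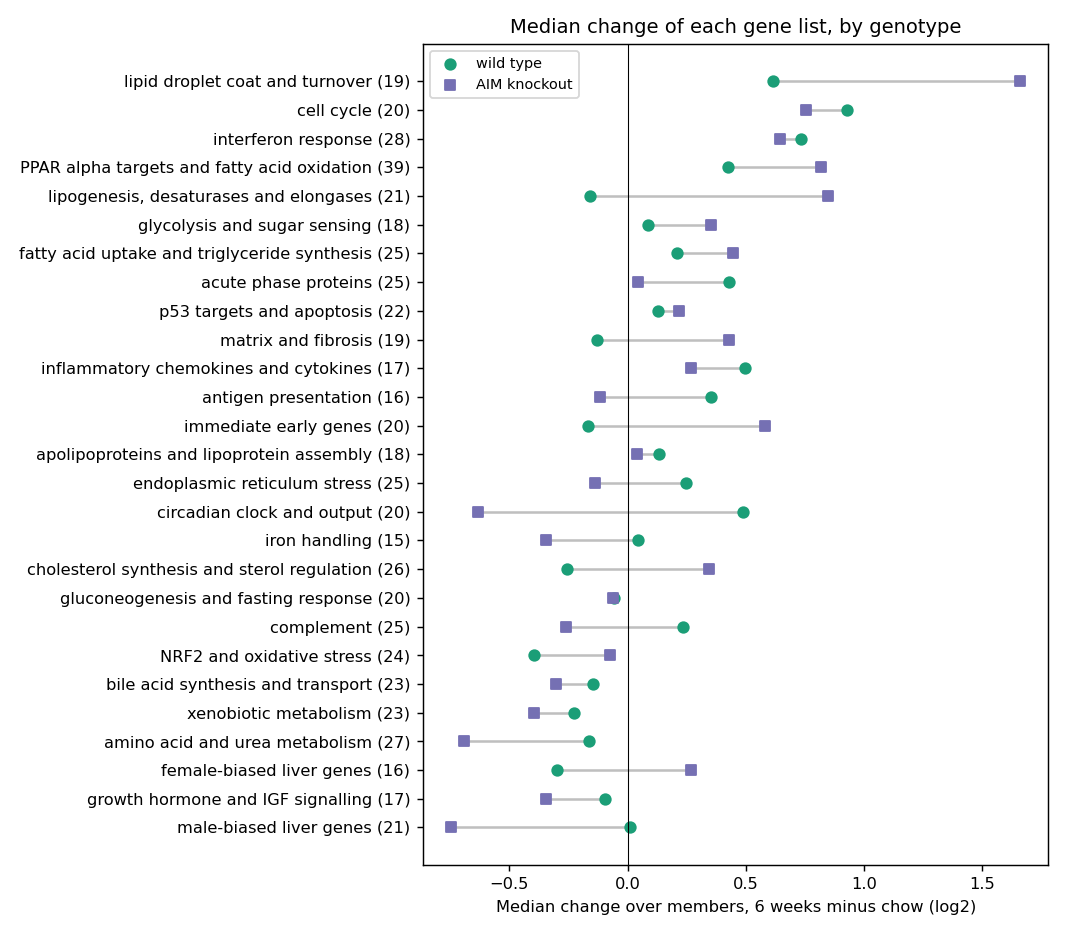
Median change (log2, 6 weeks minus chow) over the members that passed the filter, for each of 27 pathway lists (number of such members in brackets), in wild type (circles) and knockout (squares). Lipid droplet genes reach 1.66 in knockout, interferon genes lie close together at 0.73 and 0.65, and circadian genes lie on opposite sides of 0 at 0.49 and -0.63.

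Cholesterol synthesis had no shared direction: of 26 genes 3 were higher and 5 lower in both genotypes, 0 reached 2-fold in both, and the medians were -0.26 and 0.35. Among 18 apolipoprotein and lipoprotein assembly genes 6 were higher and 5 lower in both (28.1% and 27.3% of all genes tested were). Apoa4, an apolipoprotein that tracks hepatic triglyceride, was the only 1 of them at least 2-fold higher in both, with 1130 and 901 on chow and 5775 and 40678 at 6 weeks. The knockout signal at 6 weeks exceeded the other 3 several-fold, and the changes were 2.47 and 5.41 (SE 0.80; limma adjusted p = 0.188). Apom, a carrier of sphingosine 1-phosphate, had 28880 and 44563 on chow and 15915 and 15573 at 6 weeks (-0.74 and -1.61; limma adjusted p = 0.179).

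Genes of glucose metabolism had no shared direction. Of 20 gluconeogenic and fasting genes 3 were higher and 6 lower in both (28.1% and 27.3% of all genes tested were). Their medians were -0.06 in each genotype, and 0 were at least 2-fold in both. G6pc, whose enzyme releases free glucose in the last step of gluconeogenesis, had 30558 in wild type and 899 in knockout on chow, and 12354 and 19322 at 6 weeks. The low knockout chow array set the change of 4.33 in knockout against -1.19 in wild type (difference limma adjusted p = 0.0241). Igfbp1, a binding protein that insulin represses, was 36541 on the wild-type chow array and between 6470 and 6811 on the other 3. Of 18 genes of glycolysis and sugar sensing 7 were higher and 2 lower in both. Ldha, the lactate dehydrogenase A chain, had 28210 and 37687 on chow and 58831 and 73070 at 6 weeks (1.18 and 0.86; limma adjusted p = 0.108).

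Drug-metabolising genes were lower at 6 weeks more often than higher. Of 23 xenobiotic genes that passed the filter (25 listed), 11 were lower in both genotypes (27.3% of all genes tested were) and 4 higher (28.1% of all), 3 were at least 2-fold lower in both (0.687% of all) and 0 at least 2-fold higher, with medians of -0.23 and -0.40; none passed the test. Cyp3a11, the main drug-oxidising P450 of mouse liver, gave 38367 and 28623 on chow and 5394 and 10018 at 6 weeks. Its diet signals lay well below those on chow, 6.55-fold in wild type and 3.04-fold in knockout (SE 0.28 log2; limma adjusted p = 0.0988). Cyp2c55, a P450 induced through the receptors CAR and PXR, had 323 and 273 on chow and 33.8 and 74.0 at 6 weeks (-3.14 and -1.98; SE 0.28; limma adjusted p = 0.0623). Ces2a, a carboxylesterase, was equally low on both diet arrays, with 8393 and 9852 on chow and 2789 and 2899 at 6 weeks (limma adjusted p = 0.105). Further Cyp3a genes, which are listed as female-biased and whose probes may catch each other's transcripts, were lower as well: Cyp3a44 by -2.41 and -1.76 (limma adjusted p = 0.0623), Cyp3a16 by -2.27 and -1.75 (0.0623) and Cyp3a41a by -1.93 and -1.46 (0.0802). Cyp2b10, a target of CAR, gave no shared direction: its brighter probe went from 176 to 15.7 in wild type and from 136 to 329 in knockout (-3.37 and 1.19), and its 2 probes had mean changes of -3.17 and -1.09.

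Glutathione transferases of the alpha class followed the same order. Gsta2 had 5698 and 8367 on chow and 410 and 2556 at 6 weeks (-3.68 and -1.80; limma adjusted p = 0.148), and Gsta1, a near-identical relative whose probe may catch the same transcripts, had 13203 and 18677 on chow and 2383 and 7644 at 6 weeks (-2.35 and -1.38; limma adjusted p = 0.105). Gsta4 differed by -1.38 and -1.12. With Mt2, a metallothionein that was highest on the knockout chow array (7663), they were the 4 listed genes at least 2-fold lower in both. That was 4 of 24 NRF2 and oxidative stress genes (0.687% of all genes tested were), against 0 at least 2-fold higher (1.01% of all). By any amount, 13 were lower in both genotypes (27.3% of all) and 3 higher (28.1% of all). The classical NRF2 target Nqo1 differed by -0.55 and 0.22. Of 23 bile acid genes 9 were lower and 2 higher in both, and Abcc4, an export pump, was at least 2-fold lower in both, with 146 and 140 on chow and 34.4 and 66.7 at 6 weeks (limma adjusted p = 0.108). Cyp7a1, the rate-limiting enzyme of bile acid synthesis, went opposite ways at 0.60 and -0.99.

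Amino acid and urea genes were lower at 6 weeks more often than higher. Of 27, 16 were lower in both genotypes (27.3% of all genes tested were) and 3 higher (28.1% of all), with medians of -0.16 and -0.69, and 1, Hal, was at least 2-fold lower in both; none passed the test. Hal, the histidine ammonia-lyase, had 21778 and 33388 on chow and 9800 and 12028 at 6 weeks (limma adjusted p = 0.148). The urea cycle gene Ass1 had 155592 and 186491 on chow and 76524 and 86313 at 6 weeks (-0.91 and -1.20; limma adjusted p = 0.137), and Cps1, which feeds the cycle, differed by -0.55 and -1.71. Glul, the glutamine synthetase, was among the 3 higher in both, at 0.71 and 1.86. Of 17 growth hormone and IGF genes 8 were lower and 4 higher in both (27.3% and 28.1% of all genes tested were). The 2 at least 2-fold lower in both (0.687% of all) were feedback inhibitors of growth hormone receptor signalling. Socs2 had 693 and 1357 on chow and 236 and 188 at 6 weeks (limma adjusted p = 0.184), and Cish had 2401 and 2785 on chow and 878 and 457 at 6 weeks (limma adjusted p = 0.359).

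Interferon response genes were nearly all higher at 6 weeks in both genotypes. Of 30 interferon response genes listed, 28 passed the filter. Of these, 26 were higher in both genotypes and 0 lower in both, against 28.1% and 27.3% of all genes. In both genotypes 4 were at least 2-fold higher (1.01% of all) and 0 at least 2-fold lower (0.687% of all). The medians were 0.73 in wild type and 0.65 in knockout, and none passed the test. Isg15, a ubiquitin-like interferon-induced protein, had 962 and 965 on chow and 2132 and 2315 at 6 weeks. Both pairs were tight, and the changes were 1.27 and 1.17 (SE 0.22; limma adjusted p = 0.149). Ifi44, an interferon-induced protein, had 53.02 and 55.9 on chow and 164 and 154 at 6 weeks (1.75 and 1.37; limma adjusted p = 0.208). The genotypes were further apart for Gbp3, a guanylate-binding protein (1.73 in wild type and 0.68 in knockout), and Usp18, which removes ISG15 from proteins (0.72 and 1.69). The antiviral synthetase genes Oasl2 and Oas1a completed the 4, Oas1a with 175 and 191 on chow and 369 and 412 at 6 weeks (limma adjusted p = 0.179). Other immune lists were more mixed, as 7 of 16 antigen presentation genes were higher and 2 lower in both. Of 17 cytokine genes 6 were higher and 2 lower in both, and Ccl2, the monocyte chemoattractant, gave 42.8 and 79.0 on chow and 107 and 284 at 6 weeks (1.44 and 1.76; limma adjusted p = 0.274).

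**Figure D4:**
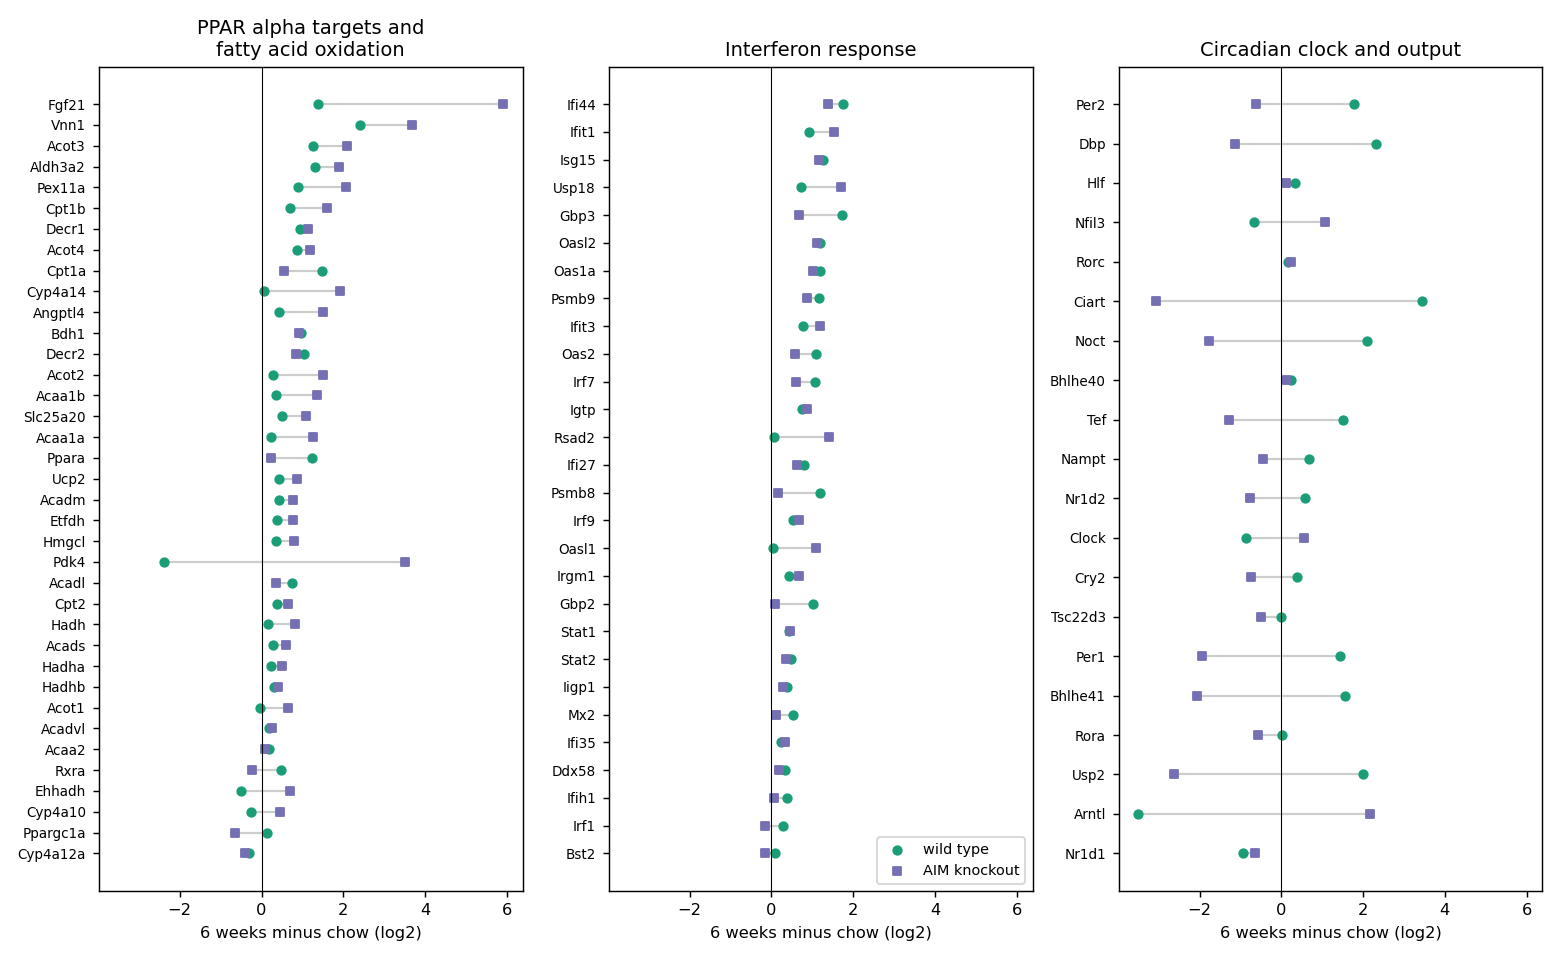
Change (log2, 6 weeks minus chow) of members that passed the filter in 3 lists (not every PPAR alpha member is drawn), with wild type as circles and knockout as squares joined by a line. Most PPAR alpha genes and 26 of 28 interferon genes lie to the right of 0 in both genotypes, whereas circadian genes such as Ciart, Dbp and Arntl lie on opposite sides.

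Acute phase proteins were higher in both genotypes for 12 of 25 genes (28.1% of all genes tested were) and lower in both for 0 (27.3% of all), with medians of 0.43 and 0.04. Lcn2, the iron-siderophore binding lipocalin, gave 39.0 and 41.7 on chow and 287 and 249 at 6 weeks. Its pairs were tight and far apart, 7.99-fold in wild type and 5.60-fold in knockout (SE 0.30 log2; limma adjusted p = 0.0623). Orm3, an orosomucoid, had 178 and 207 on chow and 400 and 973 at 6 weeks (limma adjusted p = 0.105), while the abundant Orm1 differed by 0.13 and -0.29. The serum amyloid genes Saa1 and Saa2, whose probes may share transcripts, were lowest on the wild-type chow array; Saa1 had 8637 there and between 19265 and 33259 on the other 3.

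Cfd, the serine protease adipsin of the alternative complement pathway and a product of fat cells, had 133 and 65.8 on chow and 13622 and 2480 at 6 weeks. Both diet signals exceeded both chow signals by over 10-fold, with changes of 6.80 and 5.15 (SE 0.85; limma adjusted p = 0.108). It was the 1 of 25 complement genes at least 2-fold higher in both (1.01% of all genes tested were). Of the 25, 7 were higher and 5 lower in both, beside 28.1% and 27.3% of all genes tested. Of 10 adipocyte markers 4 passed the filter (Cfd, Lipe, Fabp4 and Pnpla2), while the defining genes Adipoq, Lep, Retn, Adrb3 and Ucp1 were not well above background on any of the 4 arrays. The tenth, Plin1, a perilipin of fat cells, was well above background on the knockout chow array (359) and not on the other 3 (8.78 to 9.82). Summed over the 10, adipocyte signal was 3963 and 5805 on chow and 17646 and 8989 at 6 weeks. Without Cfd the sums of the other 9 were 3831 and 5739 on chow and 4024 and 6509 at 6 weeks. Fabp4 differed by -0.27 and 0.93 and Lipe by 0.62 and 0.30.

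Cell cycle genes were dim. Of 30 listed 20 passed the filter, 3 of them only through the 6-week arrays, and 14 were higher in both genotypes (28.1% of all genes tested were) with 0 lower in both (27.3% of all); the medians were 0.93 and 0.76, and none passed the test. The direction of those 3 was set by the filter, and of the other 17, 11 were higher in both and 0 lower, with medians of 0.85 and 0.71. Mki67, a marker of cycling cells, had 23.3 and 67.7 on chow and 79.4 and 124 at 6 weeks, with the wild-type chow array not well above background (limma adjusted p = 0.184). Mcm2, a subunit of the replicative helicase, had 67.2 and 52.7 on chow and 122 and 156 at 6 weeks (0.98 and 1.48; limma adjusted p = 0.208). Aurka, a mitotic kinase, gave 87.3 and 59.5 on chow and 157 and 178 at 6 weeks (0.97 and 1.49; limma adjusted p = 0.202). Ube2c and Cdkn3 were not well above background on chow and were at least 2.59-fold and 2.58-fold higher.

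Matrix, p53, endoplasmic reticulum stress and iron lists had 0 members at least 2-fold different the same way in both genotypes. Of 19 matrix genes 3 were higher and 3 lower in both; Col1a1, the main fibrillar collagen chain, had 56.2 and 65.8 on chow and 35.3 and 308 at 6 weeks, higher in knockout only. Of 22 p53 and apoptosis genes 9 were higher and 4 lower, of 25 stress genes 6 and 2, and of 15 iron genes 3 and 4. Beside each list of this paragraph stand 28.1% of all genes tested higher and 27.3% lower in both. Immediate early genes had 5 of 20 higher and 5 lower in both, with Egr1 lower from 344 and 2585 on chow to 82.6 and 384 (limma adjusted p = 0.507) and Nr4a2 higher by 1.54 and 1.81.

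Markers of other liver cells did not pass the test in any list. Over all genes tested, 28.1% were higher and 27.3% lower in both genotypes, the shares that go beside each count of this paragraph. Of 19 Kupffer cell and macrophage markers, all well above background on all 4 arrays, 11 were higher and 3 lower in both genotypes. Their medians were 0.52 and 0.04, and their summed signals 55333 and 54528 on chow and 75184 and 53803 at 6 weeks. That sum holds Cd5l itself, whose knockout signals were 90.7 and 140. Clec4f, specific to Kupffer cells, had 5795 and 7358 on chow and 7924 and 7781 at 6 weeks. Of 13 recruited macrophage markers on the array 8 passed, 5 were higher and 1 lower in both, and the sums were 3645 and 5464 on chow and 3441 and 7614 at 6 weeks. Trem2, a lipid receptor of such macrophages, had 67.4 and 283 on chow and 174 and 398 at 6 weeks. Of 12 endothelial markers 0 were higher and 2 lower in both, and of 6 B cell markers that passed 1 was higher and 3 lower; Ms4a1, which encodes CD20, had 68.5 and 73.6 on chow and 26.8 and 46.4 at 6 weeks. Igh, the immunoglobulin heavy chain locus, was among the 15 largest shared differences downwards. It had 697 and 624 on chow and 74.6 and 152 at 6 weeks, changes of -3.11 and -2.13 (limma adjusted p = 0.139). Ighm differed by -0.79 and 0.15 on its brighter probe, and its 2 probes had mean changes of -0.32 and 0.36. The part of cell composition in these results was not tested.

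Outside the lists, the 15 largest differences upwards that both genotypes shared also included Cgref1, a secreted calcium-binding regulator of cell growth, with 144 and 116 on chow and 1119 and 2671 at 6 weeks (3.08 and 4.44; limma adjusted p = 0.0552). Rspo3, an amplifier of Wnt signalling, was not well above background on chow and gave 41.2 and 62.2 at 6 weeks, at least 5.04-fold higher (limma adjusted p = 0.215). Stap1, a signalling adaptor of immune cells, reached 118 and 236, at least 10.6-fold higher (limma adjusted p = 0.0589). Sla2, a Src-like adaptor, and Ptgfr, the receptor of prostaglandin F2 alpha, were at least 5.77-fold and 4.46-fold higher without passing the test. Rspo3, Stap1, Sla2 and Ptgfr passed the filter only through the 6-week arrays, which set the direction of their change. Of the 15 largest differences downwards, 12 were not well above background on either 6-week array (Rab27b, C530043A13Rik, Apobec4, Zc3hav1l, Obp2a, Dnajc5b, Speer6-ps1, Btla, Map1a, Grm7, 4930456L15Rik and Rnf207), with bounds from at least 4.34-fold to at least 9.66-fold. Those 12 passed the filter only through the chow arrays, which set the direction of their change. Etnppl, which breaks down phosphoethanolamine, was among the other 3, with 11993 and 20851 on chow and 2760 and 5370 at 6 weeks. It was 4.004-fold lower in wild type and 4.13-fold lower in knockout (SE 0.29 log2; limma adjusted p = 0.108). Ptgds, a prostaglandin D synthase, had 322 and 128 on chow and 67.5 and 28.1 at 6 weeks.

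Some genes changed in opposite ways in the 2 genotypes, with 1 array against 1 in each. At least 2-fold opposite changes were seen in 67 genes higher in wild type and lower in knockout (0.489%) and in 66 the other way (0.482%). The difference of the changes was tested with limma over the 8 arrays, with its spread from 1 residual degree of freedom at weeks 12 and 20; 27 genes (0.197%) were higher in knockout and 16 (0.117%) lower. In simulated data this test called more unchanged genes than its threshold allows. With spreads drawn from limma's fitted distribution, 20 of its 172 calls were unchanged genes. With each gene's spread as limma estimated it, 124 of 324 were. For the test of the mean change, the counts were 11 of 158 and 5 of 166. Cyp2b9, a female-biased P450, gave 642 and 493 on chow and 59.4 and 11295 at 6 weeks, so that chow arrays were alike and the 6-week arrays far apart (difference limma adjusted p = 0.0127). Its neighbour Cyp2b13, whose probe may catch Cyp2b9 transcripts, had 310 and 217 on chow and 12.5 and 2310 at 6 weeks (difference limma adjusted p = 0.0159). The male-biased steroid dehydrogenase Hsd3b5 had 14976 and 7436 on chow and 9996 and 154 at 6 weeks (difference limma adjusted p = 0.0751). Over 21 male-biased genes the median was 0.01 in wild type and -0.75 in knockout, and over 16 female-biased genes -0.30 and 0.27. Of sex-specific transcripts, the Y-linked Kdm5d, Ddx3y and Eif2s3y were measured well above background on each of the 4 arrays, and Xist was so on 1 array, the knockout at 6 weeks, by 1 of its 4 probes (165).

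Other genes differed widely between the 2 chow arrays. Moxd1, a monooxygenase-like gene of the list of male-biased genes, had 5.58 and 3468 on chow and 393 and 6.61 at 6 weeks (difference limma adjusted p = 0.0115). Tff3, a trefoil peptide of mucous epithelia, had 232 and 7957 on chow and 489 and 20.6 at 6 weeks (difference limma adjusted p = 0.0827). Asns, the asparagine synthetase, had 1153 and 6027 on chow and 555 and 91.2 at 6 weeks (difference limma adjusted p = 0.0193). Circadian genes separated the 2 chow arrays as well. Dbp, a clock output factor with a strong daily rhythm, had 9867 and 75952 on chow and 44841 and 36603 at 6 weeks, while Arntl, which encodes the clock activator BMAL1, had 285 and 25.7 on chow and 23.1 and 124 at 6 weeks. For Dbp the chow arrays were the lowest and the highest; for Arntl the wild-type chow array was the highest, and the knockout chow and wild-type 6-week arrays were not well above background. Ciart, a clock repressor, differed by 3.43 in wild type and -3.08 in knockout. Of 20 circadian genes 3 were higher and 2 lower in both (28.1% and 27.3% of all genes tested were), with medians of 0.49 and -0.63. The part of time of day in the results above was not tested.

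**Figure D5:**
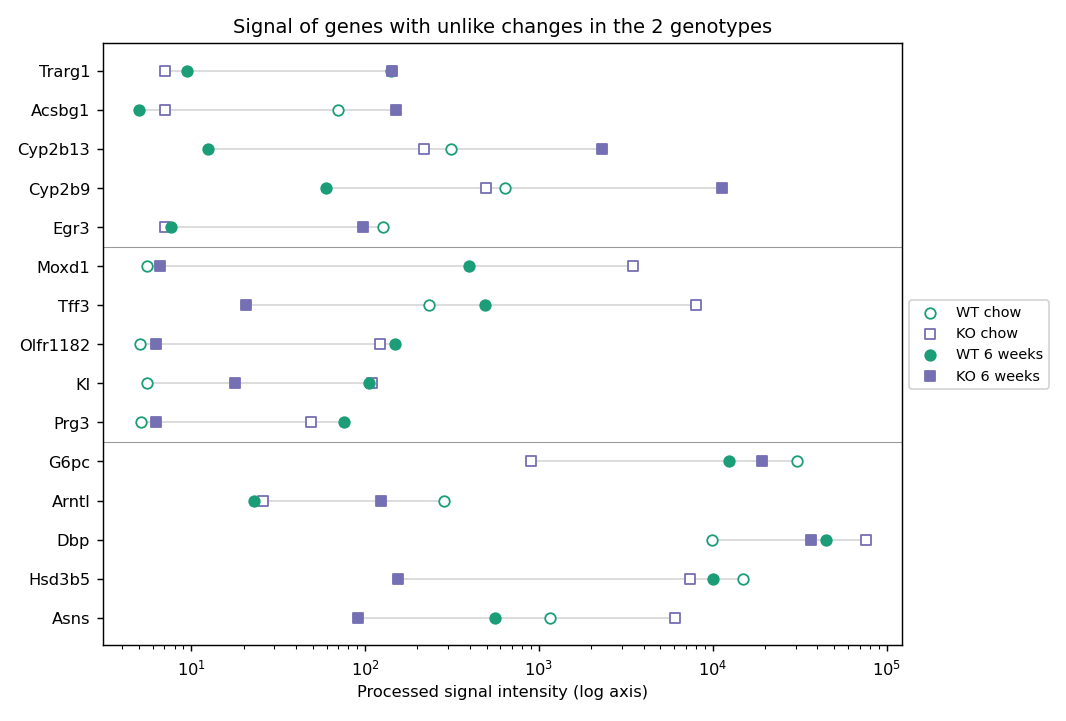
Processed signal (log axis, as deposited) on each of the 4 arrays of 15 genes with unlike changes in the 2 genotypes; open symbols are chow, filled symbols 6 weeks, circles wild type and squares knockout. Cyp2b9 has chow symbols close together at 493 and 642 and 6-week symbols at 59.4 and 11295, whereas for Dbp the chow symbols are the outermost, at 9867 and 75952.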

How the data were processed

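Total liver RNA was labelled with Cy3 and hybridised to 8 one-colour arrays, and the processed signal intensity was deposited by the authors as Agilent Feature Extraction output (version 9.5, per the submitters' processing notes; mm8 coordinates, per the file headers). The deposited value table holds log2 processed signal minus about the 75th percentile of each array: 99.7% to 99.8% of probes lay within 0.01 of the array's offset on the 4 arrays. From the intensity files, 1639 control spots and 76 to 112 outlier spots per array were left out, log2 signals were scaled to the 75th percentile, and probes well above background on at least 2 of the 4 arrays were kept (19414; 8 were dropped for an outlier spot). Each gene was read from its probe of highest mean over the 4 arrays. Names came from RefSeq tables of GRCm38.p6 (24375 probes by accession, 6301 by symbol, 2426 by synonym, 8072 unnamed). The contrast of week 6 minus week 0 was fitted with limma 3.58.1 in R 4.3.3 on all 8 arrays (week and genotype, 3 residual degrees of freedom, two-sided, Benjamini-Hochberg, adjusted p under 0.05); scripts were tested on simulated data. The few arrays limit precision, and p-values measure only the spread between these arrays. Named genes were Cd5l, genes past the test, the 15 largest shared differences each way, the 5 largest opposite changes each way, and list members past the test or largest in mean change; further list members were added after their values were seen. The 43 lists and the genes in them were chosen with earlier results of these data known. Alternatives were other background corrections, scalings, filters, sets of arrays, thresholds, probes and the authors' table. A few genes are not reported here.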

Additional observations from a re-analysis of the deposited data

Results flagged for a closer look

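In 13 named genes the change over 6 weeks differed between genotypes by limma (knockout minus wild type, log2; adjusted p between 0.0115 and 0.0422, from 1 residual degree of freedom, a test that called too many unchanged genes in simulated data). For Cyp2b9 (7.74), G6pc (5.52) and Asns (-5.20) all 4 arrays were well above background. The other 10 had an array not well above background, so that their fitted differences (Trarg1 8.02, Cyp2b13 7.83, Egr3 7.63, Amy2a5 6.07, Arntl 5.69, Fgf21 4.54, Moxd1 -15.38, Olfr1182 -9.33, Kl -7.09 and Prg3 -7.04) depend on signals near background and have no order; what was measured are bounds. Moxd1 was at least 55.7-fold higher in wild type and at least 327-fold lower in knockout, Olfr1182 at least 20.9-fold and 11.4-fold, Kl at least 14.97-fold and 6.58-fold, and Prg3 at least 10.7-fold and 4.59-fold. In the other direction, Trarg1 was at least 12.0-fold lower in wild type and at least 9.95-fold higher in knockout, Egr3 at least 10.8-fold and 6.81-fold, Amy2a5, a pancreatic amylase, at least 3.99-fold and 4.21-fold, and Arntl at least 11.4-fold and 4.53-fold. These 8 genes were each well above background on 1 chow and 1 diet array only. Cyp2b13 was at least 22.8-fold lower in wild type, and Fgf21 at least 60.3-fold higher in knockout.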

How the results depend on the processing

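Replicate numbers could not be used to pair arrays, because each group holds 1 array and all share number 1. The arrays were paired by genotype, which was a term of the main fit and of 1 fit on the 4 arrays. The 8 higher and 3 lower calls became 14 and 6 with normexp background correction (7 of the 11 past the test), 5 higher with quantile normalization, 16 and 8 with genes well above background on all 4 arrays (7 of the 11) and 40 and 19 at an adjusted p under 0.1. They became 0 and 0 with no filter (1895 genes at an unadjusted p under 0.05), in the 4 arrays alone with a genotype term (981) or without one (1106), without week 20 (1364) and, an alternative chosen after seeing the data, without week 12 (1353), all by limma. Leaving out 1 of the 4 arrays gave 0 to 3 higher and 0 to 3 lower: 3 and 3 without the wild-type chow array (2 of the 11), and 0 and 0 without the knockout chow array (1310 at an unadjusted p under 0.05), the wild-type 6-week array (1916) or the knockout 6-week array (1276). Counts of genes at least 2-fold different in both genotypes (138 and 94) were 55 and 27 with normexp, 75 and 44 above background on all 4 arrays, and 53 and 39 at 3-fold. For wild type (455 and 343) they were 186 and 115, 273 and 179, and 175 and 148, and for knockout (696 and 504) 356 and 270, 463 higher, and 308 and 204. The 43 genes whose change differed between genotypes became 28 with normexp and 28 with quantile normalization; without week 20 that test has no residual degree of freedom and was not run. Median scaling and the authors' table kept all 11 calls, and the mean of probes 10. None of the 11 changed direction under the alternatives run, but the filter set the direction of 4931417E11Rik and of the 3 that fell. Their sizes depended on the processing. The smallest mean changes were 0.54 for 4931417E11Rik, -0.75 for 4930465A12Rik, -0.91 for LOC674229 and -0.97 for Speer6-ps1, so their printed bounds hold for the main processing. For Slc13a4 the smallest was 1.54. Of 225 named genes, 53 that did not pass the test had a mean change of the other sign when 1 of the 4 arrays was left out, and 5 (Amy2a5, Cd8b1, Cyp2b13, Ighm and Vwf) under another setting; Hsd3b5, at -3.07, became 0.02 without the knockout 6-week array. Lists with medians of 1 sign in both genotypes numbered 23, and 22 to 26 under the alternatives. Signal over background limits the genes not measured on chow or at 6 weeks, whose folds are bounds.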
